A study of Mus musculus with 9 samples.

Results

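The kinesin genes of 4T1 mammary tumors were examined after treatment of the mice with the focal adhesion kinase (FAK) inhibitor BI 853520. All genes whose mouse RefSeq symbol is Kif followed by a digit were taken, which gave 34 of the 18755 genes counted. Of these, 11 are mitotic kinesins (Kif2c, Kif4, Kif11, Kif14, Kif15, Kif18a, Kif18b, Kif20a, Kif20b, Kif22 and Kif23), and the other 23 were set against them. RefSeq lists 38 protein-coding mouse genes with such a symbol, and the remaining 4 were not analysed here. After edgeR's filter on low counts, 33 of the 34 genes were tested, all 11 mitotic kinesins and 22 of the others. Kif17, a motor of dendrites and cilia, was not tested, with between 2 and 6 counts per tumor.

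Kinesins are motor proteins that use ATP to move along microtubules or to take microtubules apart at their ends. Mitotic kinesins build the spindle, position the chromosomes and prepare the cut between the daughter cells, and most of them are made in the late phases of the cell cycle. Transport kinesins carry vesicles, mitochondria, mRNA and ciliary cargo, several of them mainly in neurons, and others trim microtubules in cilia or at the cell cortex. In a solid tumor the mitotic kinesins are made by whichever cells are dividing, while broadly used transport kinesins such as Kif5b are made by nearly every cell.

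4T1 is a metastatic mouse mammary carcinoma cell line, and the cells had been placed in mammary fat pad number 9 of female BALB/c mice that were 6 to 10 weeks old. From day 15 onward, mice received BI 853520 at 50 mg/kg by oral gavage each day for 5 days, or the 0.5% Natrosol vehicle alone. The paper carried forward only tumors whose RNA was of sufficient quality, and the counts cover 6 BI 853520 tumors and 3 vehicle tumors. All 9 tumors thus came from the same cell line and the same host strain, and each gave 1 library of polyadenylated RNA from a snap-frozen piece of the tumor. The groups are named vehicle (replicates 1 to 3) and BI 853520 (replicates 4 to 9), and the labels name no batch. A piece of tumor holds stroma and immune cells beside the carcinoma cells, and fewer cells of a type cannot be told apart from less RNA per cell in such material.

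Total counts were 21727879 to 33850245 in vehicle tumors and 16931607 to 22349873 in BI 853520 tumors. Levels are given as CPM, the counts of a gene scaled to a common library total after TMM normalization, whose factors lay between 0.984 and 1.02, and 3 counts correspond to 0.0886 to 0.177 CPM depending on the tumor. A gene is said to have fallen or risen where the edgeR quasi-likelihood test gave an adjusted p (Benjamini-Hochberg) of at most 0.05 over the 13966 genes tested. By that rule 28.7% of all genes tested were called, 14.1% falling and 14.6% rising, and the median log2 fold change was -0.00371. Of the 6 epithelial markers, Krt8 and Krt18 fell, and the summed level of the 6 ranged from 959 to 1186 CPM in vehicle and from 756 to 964 CPM in BI 853520 tumors. The other markers, not called, had fitted changes above 0, namely 1.06 for Epcam (2.13 ± 0.603 and 4.42 ± 2.96 CPM, SD, n = 3 and n = 6), 0.59 for Krt7, 0.16 for Cdh1 and 0.15 for Krt19, and the median of the list was 0.16 (all log2 fold changes). All 6 macrophage markers rose (summed level 1368 to 1813 CPM in vehicle, 2632 to 3342 CPM in BI 853520), 4 of 5 T cell markers rose (50.2 to 54.5 against 87.2 to 130 CPM) and 3 of 4 neutrophil markers fell (499 to 721 against 203 to 353 CPM). The part of these shifts in the kinesin values was not tested.

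Several mitotic kinesins were among the most abundant of the kinesins counted. Per kilobase of the deposited gene length, averaged over the 9 tumors, Kif5b stood highest with 43.2 CPM per kb, followed by the mitotic kinesins Kif22 (29.2), Kif20a (26.4) and Kif23 (23.8 CPM per kb). The next were Kif1c, a carrier of vesicles, with 22.8 CPM per kb, and Kif2a, a microtubule depolymerase, with 21.4 CPM per kb. Kif11 had 17.2 CPM per kb and Kif14 had the lowest value among the mitotic kinesins, 5.57 CPM per kb. Kif1a (0.369), Kif5a (0.336) and Kif27 (0.260 CPM per kb) were near the bottom of the order, and Kif17 was last with 0.0450 CPM per kb.

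In BI 853520 tumors 6 of the 11 mitotic kinesins fell and 0 rose (54.5% falling, beside 14.1% of all genes tested). Those that fell were Kif18a, Kif2c, Kif4, Kif11, Kif22 and Kif18b, with log2 fold changes between -0.50 and -0.40. The fitted change was below 0 for all 11 genes, from -0.50 (Kif18a) to -0.33 (Kif15), with a median of -0.40 on the log2 scale. All 11 had an unadjusted p of at most 0.05 in the edgeR quasi-likelihood test, beside 5687 of the 13966 genes tested in either direction. At the limits of the study, which add a 1.5-fold change to that p, 0 of the 11 passed downward, beside 3.57% of all genes tested. No rise was called by DESeq2 either, which called 8 of the 11 as falling, and no mitotic kinesin had an unadjusted p of at most 0.05 in the upward direction with either tool. The groups overlapped for 9 of the 11 genes, and every BI 853520 tumor lay below every vehicle tumor for Kif18a and Kif22 alone, where 14% of all genes tested showed such a gap.

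**Figure D1:**
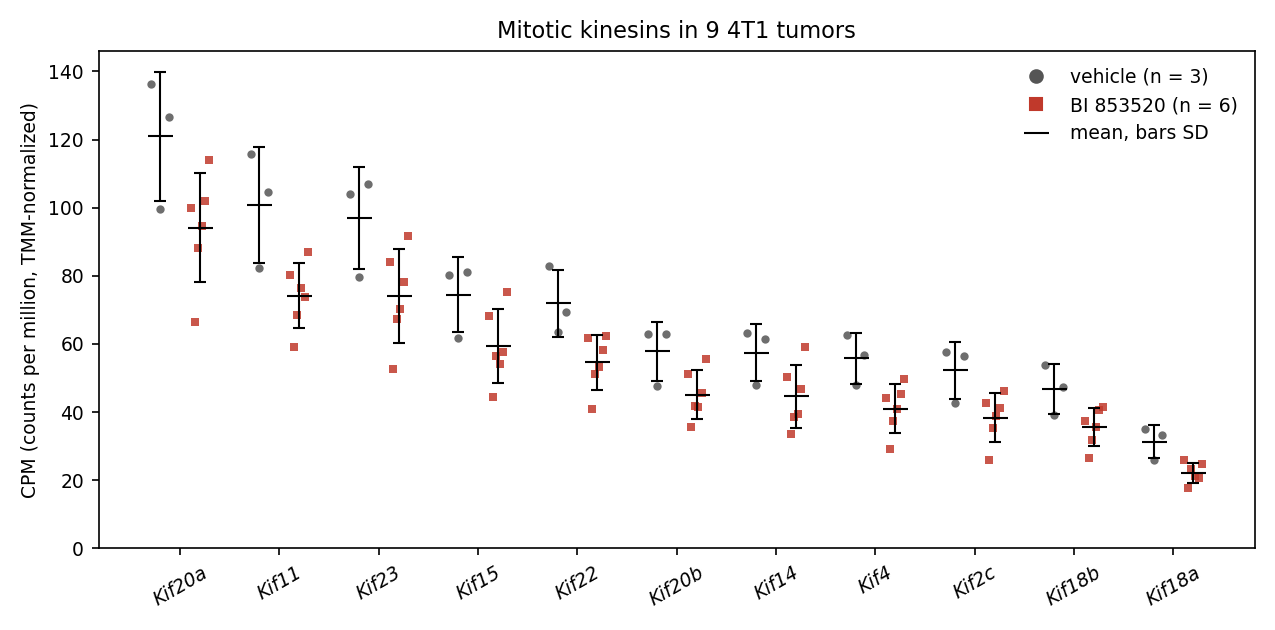
Level of the 11 mitotic kinesins in each tumor, in CPM on a linear axis, with grey circles for the 3 vehicle tumors, red squares for the 6 BI 853520 tumors, and lines and bars for the mean and SD. The mean is lower in the BI 853520 group for each gene, and the lowest vehicle tumor lies among the BI 853520 tumors for 9 of the 11.

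The count of mitotic kinesins called depended on single tumors. Without vehicle replicate 1 or without vehicle replicate 3 it was 0, with adjusted p of 0.0590 to 0.286 and of 0.0538 to 0.305 from the edgeR quasi-likelihood test, and 3 and 5 of the 11 had an unadjusted p of at most 0.05. It was 2 without BI 853520 replicate 6 or replicate 7, 9 without vehicle replicate 2 and 11 without BI 853520 replicate 9. The direction did not depend on them, since each of the 11 genes had a log2 fold change below 0 with any tumor left out, and the median ranged from -0.51 to -0.30.

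Kif11, the motor that slides spindle microtubules apart and makes the spindle bipolar, lies at chr19:37450893-37496349 of mm9. Its level was 116, 82.2 and 105 CPM in the vehicle tumors, and in BI 853520 tumors the lowest was 59.2, the median 75.2 and the highest 86.9 CPM. Of the 6 BI 853520 tumors, 5 were below every vehicle tumor. The log2 fold change was -0.44 (SE 0.119, adjusted p = 0.0164 from the edgeR quasi-likelihood test), and the adjusted p ranged from 0.00625 to 0.0945 with single tumors left out. Kif15, which can stand in for Kif11 in keeping the spindle bipolar, was at 80.4, 61.7 and 81.2 CPM in vehicle tumors and at 44.5, 57.1 and 75.4 CPM (lowest, median, highest) in BI 853520 tumors. These groups overlapped, and the log2 fold change of -0.33 (SE 0.142) had an adjusted p of 0.105.

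Among the motors that act on chromosomes and on microtubule ends, Kif18a had the largest fitted change of the mitotic group. Kif18a damps the swings of chromosomes at the spindle equator and lies at chr2:109120895-109181904 of mm9. It stood at 34.9, 25.90 and 33.1 CPM in vehicle tumors and at 17.8, 22.2 and 25.89 CPM (lowest, median, highest) in BI 853520 tumors. The groups therefore met almost exactly, at vehicle replicate 2 and BI 853520 replicate 4. The log2 fold change was -0.50 (SE 0.122, adjusted p = 0.0106), and the adjusted p ranged from 0.00575 to 0.0590 with single tumors left out.

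Kif18b, a relative of Kif18a that limits the astral microtubules (chr11:102766843-102786438), had 53.8, 39.1 and 47.5 CPM in vehicle tumors and 26.6, 36.5 and 41.5 CPM in BI 853520 tumors (lowest, median, highest). Its groups overlapped through vehicle replicate 2, and the log2 fold change was -0.40 (SE 0.133, adjusted p = 0.0431). Kif2c, the depolymerase that frees wrongly attached microtubules from centromeres (chr4:116832244-116855244), had 57.8, 42.5 and 56.5 CPM and 25.9, 40.0 and 46.3 CPM. Here 4 of 6 BI 853520 tumors were below every vehicle tumor, and the log2 fold change was -0.45 (SE 0.152, adjusted p = 0.0449). Kif18b and Kif2c were the calls nearest the threshold. With library sizes in place of TMM factors the adjusted p was 0.0555 for Kif18b and 0.0572 for Kif2c, over all alternatives it ranged from 0.0211 to 0.198 and from 0.0209 to 0.167, and each lost its call with any of 5 single tumors left out.

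Kif4 and Kif22 bind chromosome arms. Kif22, which pushes the arms towards the equator (chr7:134171246-134185934), had 82.8, 63.6 and 69.4 CPM in vehicle tumors and 40.8, 55.6 and 62.4 CPM in BI 853520 tumors (lowest, median, highest). Its groups did not overlap, and the log2 fold change was -0.40 (SE 0.123, adjusted p = 0.0306). Kif4, which compacts chromosomes and later sits on the spindle midzone (chrX:97821076-97922553), had 62.7, 47.9 and 56.7 CPM and 29.0, 42.5 and 49.6 CPM. BI 853520 replicate 9 alone reached into the vehicle range, and the log2 fold change was -0.44 (SE 0.138, adjusted p = 0.0316). Exons of Kif4 overlap those of Pdzd11 on the other strand over 832 bases, and whether strand was used in counting is not stated, so the Kif4 value may hold reads of Pdzd11. Both genes lost the call without vehicle replicate 1 or 3 or BI 853520 replicate 6 or 7, with adjusted p up to 0.158 for Kif22 and 0.143 for Kif4. RefSeq names pseudogene copies of Kif4 and Kif22, and reads shared with such a copy would have been dropped by an alignment that keeps unique hits.

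Kif20a, Kif23, Kif20b and Kif14, which act in the late spindle and in cytokinesis, were not called by the edgeR quasi-likelihood test. Kif20a, which carries the chromosomal passenger complex to the midzone, had 136, 99.7 and 127 CPM in vehicle tumors and 66.5, 97.2 and 114 CPM in BI 853520 tumors (lowest, median, highest). Kif23, the motor subunit of centralspindlin, had 104, 79.7 and 107 CPM and 52.6, 74.2 and 91.6 CPM. Kif20b, which acts at abscission, had 62.9, 47.7 and 62.8 CPM and 35.6, 43.6 and 55.6 CPM. For these genes vehicle replicate 2 lay among the BI 853520 tumors. Kif14, the partner of citron kinase in the cleavage furrow, had 63.1, 47.9 and 61.4 CPM in vehicle and 33.7, 43.0 and 59.1 CPM in BI 853520 tumors, again with an overlap. The log2 fold changes were -0.36 for Kif20b (adjusted p = 0.0577), -0.39 for Kif23 (0.0654), -0.36 for Kif20a (0.0733) and -0.37 for Kif14 (0.0924, all from the edgeR quasi-likelihood test). Standard errors between 0.130 and 0.153 went with these values. The fitted changes of the 5 uncalled mitotic kinesins ran from -0.39 to -0.33 and those of the 6 called ones from -0.50 to -0.40, without a gap in size between them. Of 16 alternatives, 6 called Kif20b, 4 called Kif23, 3 called Kif20a and 1 called Kif14. With single tumors left out, the adjusted p ranged from 0.0223 to 0.206 for Kif20b, from 0.0311 to 0.228 for Kif23, from 0.0394 to 0.268 for Kif20a and from 0.0225 to 0.273 for Kif14. Exons of Kif20a overlap those of Cdc23 on the other strand over 1259 bases.

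The 11 mitotic kinesins kept nearly the same order of tumors. Vehicle replicate 2 was the lowest vehicle tumor for 11 of 11 genes, and BI 853520 replicate 5 the lowest BI 853520 tumor for 11 of 11. BI 853520 replicate 9 was the highest of its group for 10 of 11, with Kif18a as the exception. Expressed as a percentage of the vehicle mean of each gene, the median over the 11 genes was 112, 82.7 and 106% in vehicle replicates 1, 2 and 3. In BI 853520 replicates 4 to 9 it was 82.7, 56.9, 69.5, 73.4, 80.6 and 88.9%. Vehicle replicate 2 thus stood level with BI 853520 replicate 4 and below replicate 9. The summed level of the 11 genes was 855, 638 and 807 CPM in vehicle tumors and 646, 432, 540, 565, 609 and 707 CPM in BI 853520 replicates 4 to 9.

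**Figure D2:**
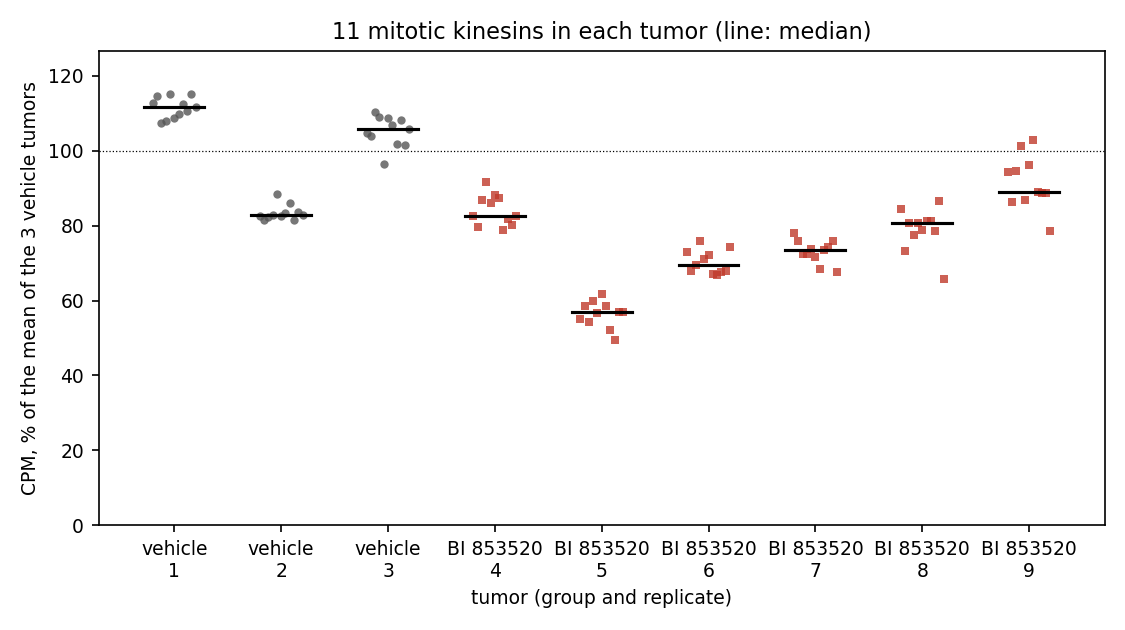
Level of each mitotic kinesin in each tumor as a percentage of that gene's mean over the 3 vehicle tumors, with 1 point per gene, a black line for the median over the 11 genes and a dotted line at 100%. Within a tumor the genes lie close together, from 49.6 to 61.6% in BI 853520 replicate 5, while tumors of the same group lie well apart.

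Proliferation genes that are no kinesins ranked the tumors almost alike. The mean log2 CPM of 17 such genes was 6.97, 6.51 and 6.80 in vehicle replicates 1, 2 and 3, and 6.49, 5.98, 6.26, 6.42, 6.54 and 6.64 in BI 853520 replicates 4 to 9. The same mean over the mitotic kinesins was 6.18, 5.77 and 6.10 in vehicle tumors and 5.78, 5.20, 5.52, 5.58, 5.68 and 5.90 in BI 853520 tumors. Replicate 5 was lowest and replicate 9 highest among the BI 853520 tumors in both means, and vehicle replicate 2 was the lowest vehicle tumor in both. All values share their libraries, so the likeness is given as a description. Of the 17 proliferation genes 6 fell and 0 rose (35.3% falling, beside 14.1% of all genes tested), with a median log2 fold change of -0.37, and the fitted change of all 17 was below 0. Top2a, the topoisomerase that untangles sister chromatids, changed by -0.62 on the log2 scale (adjusted p = 0.00322), and the checkpoint kinase genes Bub1b and Bub1 by -0.56 (0.00748) and -0.57 (0.00914, all from the edgeR quasi-likelihood test). Without vehicle replicate 1 or without vehicle replicate 3, 2 of the 17 fell.

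Partners of the mitotic kinesins were called in the falling direction, with different shares in the 2 lists. Of 10 spindle assembly partners 6 fell and 0 rose (60% falling, beside 14.1% of all genes tested), with a median log2 fold change of -0.39. The leading genes were Ckap5, a microtubule polymerase (-0.29, adjusted p = 0.00317), Kifc1, a minus-end motor that focuses spindle poles (-0.51, 0.00974), and Hmmr, a pole protein (-0.60, 0.0105). Without vehicle replicate 1 or without vehicle replicate 3, the number of spindle partners that fell was 2. Of 11 partners at the midzone and in cytokinesis 2 fell and 0 rose (18.2% falling, near the 14.1% of all genes tested), namely Anln, the furrow scaffold (-0.85 on the log2 scale, adjusted p = 0.00181), and Ect2, the exchange factor that Kif23 and its partner recruit (-0.73, 0.00655). Plk1, which primes that recruitment, had -0.44 with an adjusted p of 0.0692. The median of the midzone list was -0.26, its fitted changes reached up to -0.03 (Incenp), and 2 of the 11 were above 0 without vehicle replicate 1 or without BI 853520 replicate 5. Cenpe, a centromere motor whose symbol lies outside the rule, fell from 163 ± 25.1 to 108 ± 17.3 CPM (SD, n = 3 and n = 6), a log2 fold change of -0.60 (SE 0.132, adjusted p = 0.00602).

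Many mitotic genes share promoter elements, the cell cycle genes homology region (CHR) and the CCAAT box, which are read by the MuvB complexes with Mybl2 or Foxm1 and by NF-Y. RefSeq promoter windows of GRCm38.p6 (250 bases before and 50 bases after the start) were found for 28 of the 34 kinesin genes, 10 of them mitotic. Searched on both strands, the CHR letters TTTGAA or TTCGAA stood in the windows of 9 of 10 mitotic kinesins (90%), of 4 of 18 other kinesins (22.2%) and of 16.7% of the 11017 tested genes with a window. Within 50 bases of the start the CHR letters stood in 7 of 10 mitotic kinesins (70%), in 3 of 18 others (16.7%) and in 4.38% of the tested genes. CCAAT was present in 6 of 10 mitotic kinesins (60%), 6 of 18 others (33.3%) and 42.8% of the tested genes. No CHR match overlapped a CCAAT match in the windows shown. The windows of the 4 called mitotic kinesins with both motifs are shown first, followed by that of Kif18a, which had the largest fitted change of the mitotic group and holds neither, and that of Kif21a, which had the smallest p of the other kinesins and holds neither. Capitals mark CHR and CCAAT matches on either strand, and each window is written 5′ to 3′ along the gene.
Kif11, chr19:37376132-37376431 of GRCm38.p6, plus strand: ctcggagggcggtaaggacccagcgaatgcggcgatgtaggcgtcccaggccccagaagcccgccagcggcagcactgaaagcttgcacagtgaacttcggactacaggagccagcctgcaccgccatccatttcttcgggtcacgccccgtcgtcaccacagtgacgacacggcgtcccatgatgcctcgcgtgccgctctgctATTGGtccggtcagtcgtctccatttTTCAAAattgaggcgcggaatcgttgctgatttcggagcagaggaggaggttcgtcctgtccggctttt
Kif22, chr7:127042371-127042670 of GRCm38.p6, minus strand: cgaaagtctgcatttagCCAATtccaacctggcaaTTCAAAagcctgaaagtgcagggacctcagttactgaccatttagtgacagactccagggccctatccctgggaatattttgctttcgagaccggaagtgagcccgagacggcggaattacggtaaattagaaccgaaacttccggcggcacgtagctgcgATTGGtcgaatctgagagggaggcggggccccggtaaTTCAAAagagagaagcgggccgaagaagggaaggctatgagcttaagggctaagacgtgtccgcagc
Kif18b, chr11:102925075-102925374 of GRCm38.p6, minus strand: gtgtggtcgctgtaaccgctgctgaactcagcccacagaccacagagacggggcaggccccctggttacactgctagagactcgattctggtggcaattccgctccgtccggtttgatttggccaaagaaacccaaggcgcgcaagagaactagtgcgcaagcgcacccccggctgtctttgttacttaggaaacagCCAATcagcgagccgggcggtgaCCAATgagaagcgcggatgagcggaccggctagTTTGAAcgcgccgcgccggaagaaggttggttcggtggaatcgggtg
Kif4, chrX:100625815-100626114 of GRCm38.p6, plus strand: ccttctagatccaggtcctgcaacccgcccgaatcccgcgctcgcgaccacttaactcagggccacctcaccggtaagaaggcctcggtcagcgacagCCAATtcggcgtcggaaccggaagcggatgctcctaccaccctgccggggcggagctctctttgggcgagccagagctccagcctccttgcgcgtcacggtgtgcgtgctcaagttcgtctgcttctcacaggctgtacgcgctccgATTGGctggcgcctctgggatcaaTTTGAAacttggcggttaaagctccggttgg
Kif18a, chr2:109280488-109280787 of GRCm38.p6, plus strand: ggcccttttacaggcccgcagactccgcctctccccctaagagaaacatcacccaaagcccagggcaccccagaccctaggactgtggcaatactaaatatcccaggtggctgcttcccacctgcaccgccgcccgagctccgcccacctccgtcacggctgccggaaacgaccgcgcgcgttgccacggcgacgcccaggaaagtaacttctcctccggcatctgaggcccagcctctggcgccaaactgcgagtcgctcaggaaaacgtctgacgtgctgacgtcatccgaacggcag
Kif21a, chr15:91049902-91050201 of GRCm38.p6, minus strand: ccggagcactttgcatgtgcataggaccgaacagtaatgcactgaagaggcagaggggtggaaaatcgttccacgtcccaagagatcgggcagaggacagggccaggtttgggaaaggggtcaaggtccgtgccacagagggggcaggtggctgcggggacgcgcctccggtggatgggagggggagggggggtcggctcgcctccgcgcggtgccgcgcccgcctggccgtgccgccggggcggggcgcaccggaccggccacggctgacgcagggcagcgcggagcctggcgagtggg
In Kif11 the CHR began at position -19 and CCAAT at -45, counted from the start. In Kif22 a CHR began at -17 and a CCAAT at -54, with a further CHR at -215 and a CCAAT at -233. In Kif18b the CHR began at 4 with CCAAT at -53 and -30, and in Kif4 the CHR began at 20 with CCAAT at -152 and -5. The matches are letters in a window and no measure of binding. Of the other called mitotic kinesins, Kif18a held neither motif and Kif2c a CHR at -103 alone. Among the uncalled ones, Kif23 held a CHR at 3 and a CCAAT at -7, and Kif14 a CHR at -228 and a CCAAT at -92. Kif15 held a CHR at -234 and at -19, and Kif20b a CHR at 8 and at 14, both without CCAAT. The part of these motifs in the changes was not tested.

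Regulators of late cell cycle transcription moved in both directions. The list holds MuvB subunits, Mybl2, Foxm1 and NF-Y, and also E2F and retinoblastoma family genes. Of its 22 genes 6 fell and 2 rose (27.3% and 9.09%, beside 14.1% and 14.6% of all genes tested), with a median log2 fold change of -0.09. Foxm1, the activator of late cell cycle genes, fell from 125 ± 22.4 to 84.7 ± 15.7 CPM (SD, n = 3 and n = 6), a log2 fold change of -0.56 (SE 0.152, adjusted p = 0.0174). Mybl2, which acts before Foxm1 on the same promoters, had 29.4 ± 3.30 and 39.7 ± 9.42 CPM, a log2 fold change of 0.43 with an adjusted p of 0.0770. The smallest p belonged to Tfdp2, a partner of E2F proteins, with -0.49 (adjusted p = 0.00283), and the NF-Y subunits were called in opposite directions, Nfya rising by 0.22 (0.00827) and Nfyb falling (-0.29, 0.00912, all from the edgeR quasi-likelihood test). Without vehicle replicate 1, 3 of the 22 fell and 1 rose, without vehicle replicate 2 the number that rose was 1, without vehicle replicate 3, 2 fell and 1 rose, and DESeq2 called 4 as rising.

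The other kinesins had no common direction. Of the 22 tested, 4 fell (Kif21a, Kif3c, Kif7 and Kif2a) and 6 rose (Kif1a, Kif5a, Kif5c, Kif19a, Kif3b and Kif9), which is 18.2% falling and 27.3% rising beside 14.1% and 14.6% of all genes tested. Their median log2 fold change was 0.08, their fitted changes ran from -0.96 (Kif27) to 1.02 (Kif19a), and 12 of the 22 were above 0. Of the 22, 4 had every BI 853520 tumor below and 6 every one above the vehicle tumors, beside 14% and 14.1% of all genes tested. These were the same 10 genes that were called, and both counts rest on the same values. Summed over the 23 genes, the level was 1131 to 1195 CPM in vehicle and 1140 to 1203 CPM in BI 853520 tumors. The number that rose was 2 without vehicle replicate 2, and with any other tumor left out it was 4 to 6. The number that fell was 3 to 5 with single tumors left out. At the limits of the study 2 of the 22 fell (Kif21a and Kif27) and 4 rose (Kif1a, Kif5a, Kif5c and Kif19a), beside 3.57% and 9.59% of all genes tested.

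**Figure D3:**
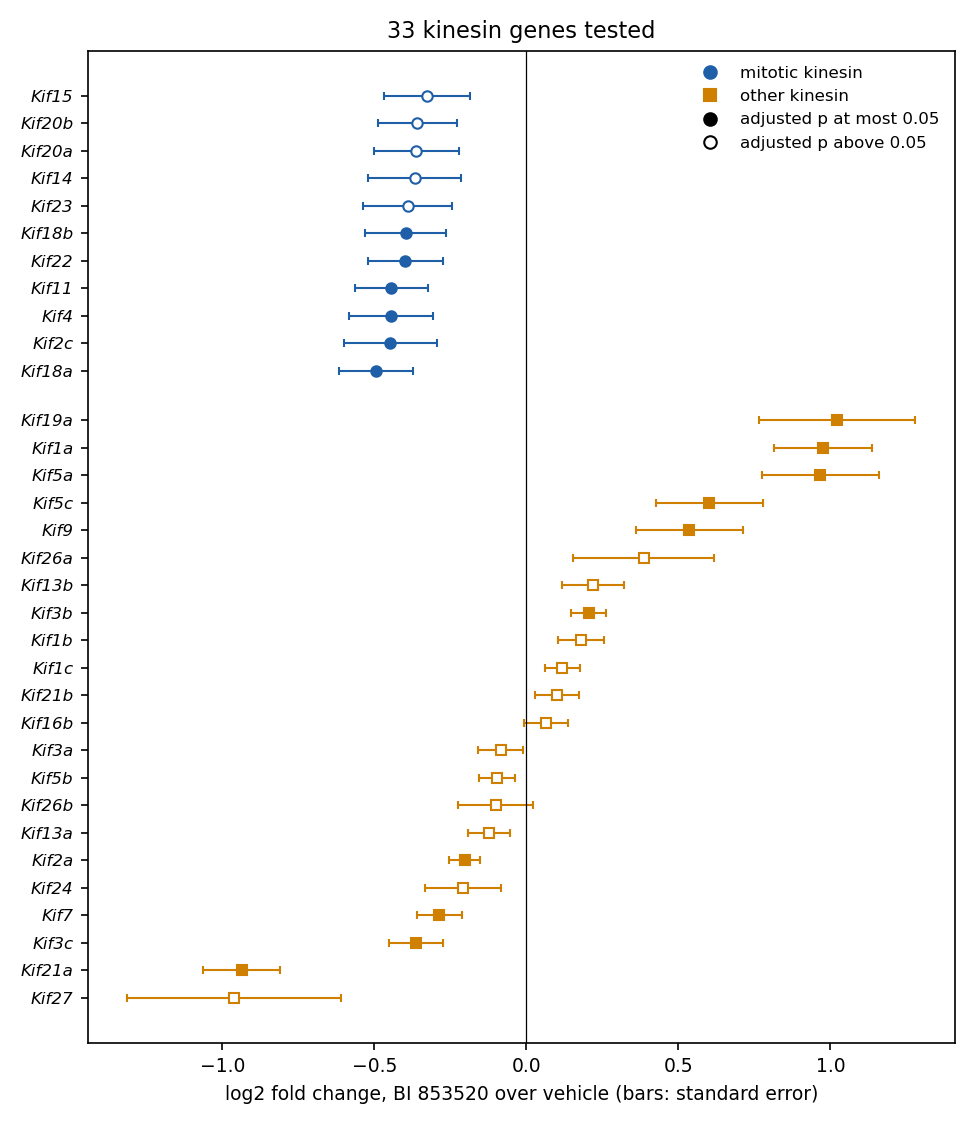
Log2 fold change of BI 853520 over vehicle for the 33 kinesin genes tested, with bars of 1 standard error from edgeR's fit. Blue circles are mitotic and orange squares other kinesins, filled where the adjusted p is at most 0.05. All 11 mitotic kinesins lie between -0.50 and -0.33, while the others spread from -0.96 to 1.02.

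Kif21a had the smallest p of all kinesins. It encodes a motor that restrains microtubule growth at the cell cortex and lies at chr15:90763707-90880382 of mm9. Its level was 15.0, 12.1 and 15.6 CPM in vehicle tumors and 6.39, 7.38 and 8.73 CPM (lowest, median, highest) in BI 853520 tumors. Every BI 853520 tumor was far below every vehicle tumor. The mean fell from 14.2 ± 1.85 to 7.47 ± 0.979 CPM (SD, n = 3 and n = 6), a log2 fold change of -0.94 (SE 0.125, adjusted p = 0.000283 from the edgeR quasi-likelihood test). With any tumor left out, the adjusted p of Kif21a was at most 0.00323 and the log2 fold change between -1.04 and -0.87. Its paralog Kif21b was not called, at 44.1 ± 2.82 and 47.3 ± 3.29 CPM (log2 fold change 0.10, adjusted p = 0.322). The ratio of Kif21a to Kif21b in CPM per kb was 0.419 to 0.486 in vehicle tumors and 0.188 to 0.257 in BI 853520 tumors.

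The motors of cilia and of the heterotrimeric complex split. Kif3a pairs with Kif3b or Kif3c, and with Kif3b and the adaptor Kifap3 it carries cargo along cilia. Kif3b, at chr2:153117149-153159126, had 83.1, 84.9 and 88.9 CPM in vehicle tumors and 93.7, 96.4 and 106 CPM (lowest, median, highest) in BI 853520 tumors, with no overlap. It rose by 0.20 on the log2 scale (SE 0.0588, adjusted p = 0.0224), and lost the call without vehicle replicate 1 or 2, with adjusted p up to 0.0936. Kif3c, at chr12:3365132-3406494, had 46.0, 51.8 and 49.7 CPM and 31.5, 38.5 and 42.4 CPM. Its groups did not overlap either, and it fell by 0.36 on the log2 scale (SE 0.0885, adjusted p = 0.0101), with an adjusted p of at most 0.0477 when any tumor was left out. Exons of Kif3c overlap a gene on the other strand, 1110002L01Rik, over 1187 bases.

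Kif3a itself was not called, with 74.6 ± 4.27 and 70.3 ± 6.05 CPM (log2 fold change -0.08, adjusted p = 0.425). Kifap3 rose from 83.0 ± 2.36 to 102 ± 5.11 CPM (log2 fold change 0.29, SE 0.0566, adjusted p = 0.00272). The ratio of Kif3b to Kif3c in CPM per kb was 2.12 ± 0.112 in vehicle tumors (1.99 to 2.20) and 3.16 ± 0.302 in BI 853520 tumors (2.72 to 3.64). The ratios of Kif3b to Kif3c and of Kif21a to Kif21b, and the values of Kif3a and Kif21b, were looked at after the values of these genes were seen, and the ratios were not tested.

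Kif7, which organises the tip of the primary cilium for Hedgehog signaling (chr7:86842985-86859072), had 15.9, 17.0 and 16.1 CPM in vehicle and 12.8, 13.6 and 14.0 CPM (lowest, median, highest) in BI 853520 tumors. The tumors of each group lay close together and the groups did not overlap. Kif7 fell by 0.29 on the log2 scale (SE 0.0731, adjusted p = 0.0128), and its exons overlap those of 2 genes on the other strand. Kif2a, a depolymerase that also works at spindle poles although it is not among the 11 (chr13:107749076-107812206), had 97.1, 98.2 and 101 CPM and 80.2, 87.2 and 89.1 CPM. It fell by 0.20 on the log2 scale (SE 0.0523, adjusted p = 0.0132), with no overlap, and 1229 bases of its exons overlap those of Dimt1 on the other strand. With single tumors left out the adjusted p ranged from 0.0136 to 0.0549 for Kif7, which lost the call without vehicle replicate 2, and from 0.0157 to 0.0597 for Kif2a, which lost it without vehicle replicate 3.

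The kinesins with the largest fitted rises had low levels. Kif1a, the carrier of synaptic vesicle precursors in axons (chr1:94912033-94998442), had 1.93, 1.61 and 2.00 CPM in vehicle tumors, which is 42, 36 and 68 counts. In BI 853520 tumors it had 3.29, 3.63 and 4.05 CPM (lowest, median, highest), or 61 to 90 counts. Each BI 853520 tumor was well above the vehicle tumors, and Kif1a rose by 0.98 on the log2 scale (SE 0.161, adjusted p = 0.00105). Kif5a, a neuronal form of conventional kinesin (chr10:126662755-126700136), had 1.05, 1.61 and 1.62 CPM and 2.68, 2.81 and 3.02 CPM. The 6 BI 853520 tumors lay closer together than the 3 vehicle tumors, and Kif5a rose by 0.97 on the log2 scale (SE 0.192, adjusted p = 0.00331). Both kept their calls with any tumor left out, with adjusted p of at most 0.00670 for Kif1a and 0.0156 for Kif5a.

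Kif5c, the other neuronal form (chr2:49474818-49630298), had 2.84, 2.01 and 2.36 CPM in vehicle and 3.24, 3.51 and 4.50 CPM (lowest, median, highest) in BI 853520 tumors. It rose by 0.60 on the log2 scale (SE 0.176, adjusted p = 0.0241) and lost the call without vehicle replicate 2 or 3 or BI 853520 replicate 7, with adjusted p up to 0.0988. Of 6 neuronal markers none passed the filter. Snap25, Nefl, Nefm and Elavl4 had at most 3 counts in every tumor. Syt1 had at most 4 counts, with a mean of 0.0393 CPM in vehicle and 0.0258 CPM in BI 853520 tumors. Stmn2 reached 15 counts, with 0.121 ± 0.0964 CPM in vehicle and 0.378 ± 0.179 CPM in BI 853520 tumors, and made up most of the sum. The summed level of the 6 markers was 0.0895 to 0.275 CPM in vehicle and 0.400 to 0.756 CPM in BI 853520 tumors. The part of nerve cells in the values of Kif1a, Kif5a and Kif5c was not tested.

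Kif19a and Kif9 are known from motile cilia, where Kif19a limits the length of the cilium and Kif9 aids its beat. Kif19a (chr11:114626702-114652053) had 1.05, 0.805 and 1.53 CPM in vehicle tumors and 1.70, 2.38 and 2.99 CPM (lowest, median, highest) in BI 853520 tumors. It rose by 1.02 on the log2 scale (SE 0.257, adjusted p = 0.0119), and the adjusted p ranged from 0.00879 to 0.0549 with single tumors left out, above the threshold without vehicle replicate 2 alone. Kif9 (chr9:110379462-110427683) had 2.20, 2.19 and 1.92 CPM and 2.56, 2.97 and 3.75 CPM. It rose by 0.54 on the log2 scale (SE 0.176, adjusted p = 0.0396), and this call was lost with any of 6 single tumors left out and without the filter on low counts, at adjusted p up to 0.143. Both genes were non-overlapping between the groups. Of the 6 multiciliated cell markers, Dnah9 and Tekt1 had no more than 3 counts in any tumor and Foxj1 no more than 13 counts. Ccdc39, which made up most of the sum, had 1.67 ± 0.353 CPM in vehicle and 1.19 ± 0.398 CPM in BI 853520 tumors (log2 fold change -0.46, adjusted p = 0.264). Foxj1 had a lower mean in BI 853520 tumors as well (0.406 CPM in vehicle, 0.325 CPM in BI 853520) and was not called. Rsph1 went the other way, with 0.120 ± 0.0678 CPM in vehicle and 0.292 ± 0.113 CPM in BI 853520 tumors. The mean of Dnah5 was also higher in BI 853520 tumors. Rsph1 and Dnah5 were not tested, with no more than 8 and 6 counts in any tumor. The 6 markers had a summed level of 2.12 to 2.73 CPM in vehicle and 1.51 to 2.34 CPM in BI 853520 tumors.

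**Figure D4:**
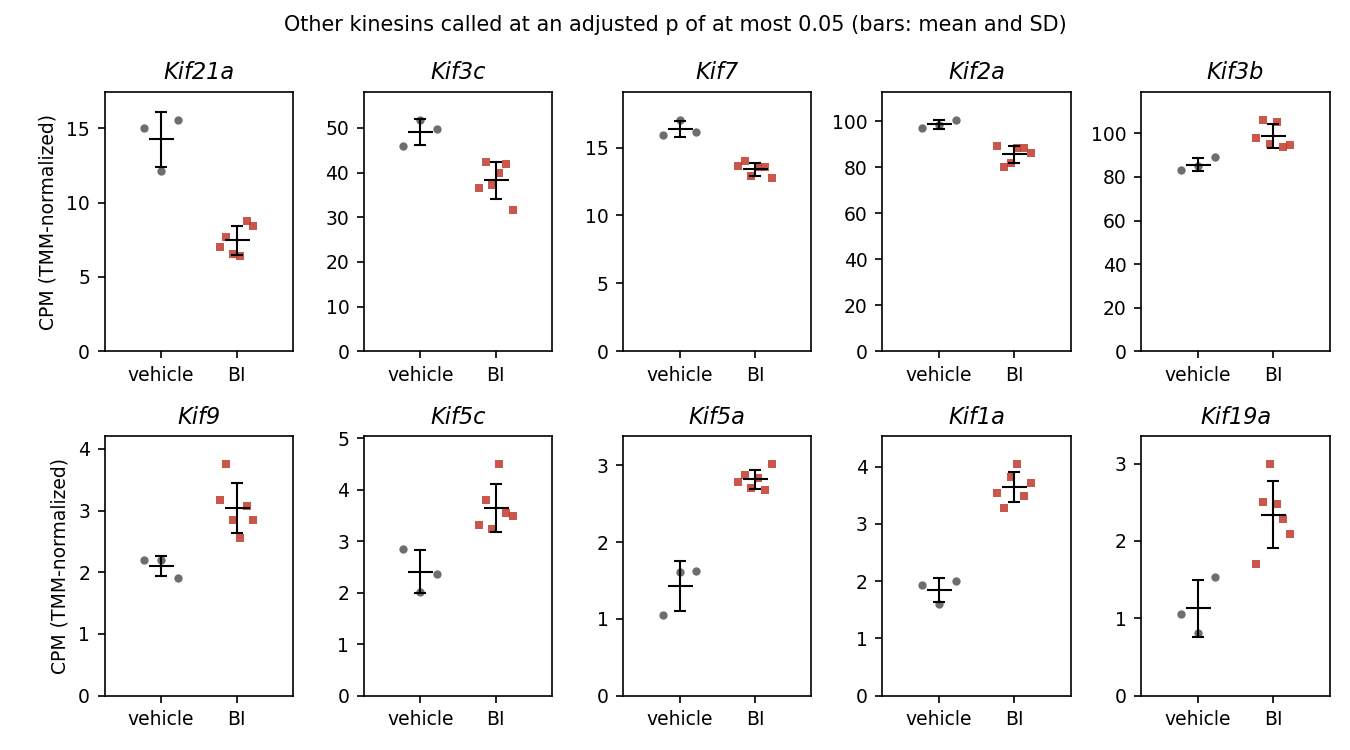
Level in CPM of the 10 other kinesins that were called, in 3 vehicle tumors (grey circles) and 6 BI 853520 tumors (red squares), with lines and bars for the mean and SD and axes that start at 0. For each gene the groups are separate, and the genes with the largest fitted rises lie below 5 CPM.

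The most abundant transport kinesins were not called. Kif5b, the form of conventional kinesin used by most cells, had 269, 256 and 292 CPM in vehicle tumors and 243, 254 and 270 CPM (lowest, median, highest) in BI 853520 tumors. These groups overlapped, with a log2 fold change of -0.10 (SE 0.0589, adjusted p = 0.240). Kif1c had 146 ± 5.24 and 158 ± 8.18 CPM, a log2 fold change of 0.12 (adjusted p = 0.143). Per kilobase, Kif5b stood at 45.2 and 42.2 CPM per kb in the 2 groups, so that the rises of Kif5a and Kif5c took place far below the level of Kif5b.

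Among the other kinesins that were not called, Kif27, Kif26a and Kif13b had the largest fitted changes. Kif27, a relative of Kif7, had 2.38, 1.21 and 1.59 CPM in vehicle and 0.469, 0.719 and 1.56 CPM in BI 853520 tumors (lowest, median, highest), with 9 to 33 counts in the latter. BI 853520 replicate 4 alone reached the vehicle range. The log2 fold change of Kif27 was -0.96 with a wide standard error of 0.351 (adjusted p = 0.0586), and the adjusted p ran from 0.0173 to 0.256 over the alternatives. Exons of Kif27 overlap a noncoding gene on the other strand over 332 bases. Kif26a, a kinesin that binds microtubules without moving, had 0.39 (adjusted p = 0.233), and Kif13b, a carrier of membrane cargo, had 0.22 (0.129, both from the edgeR quasi-likelihood test).

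Light chains and accessory subunits, which link kinesins to cargo, were called in both directions. Of the 6 tested 2 rose (33.3%, beside 14.6% of all genes tested), Kifap3 and Klc4 (0.34 on the log2 scale, adjusted p = 0.0168), and 1 fell (16.7%, beside 14.1%), Klc3, by 0.34 (0.0297, all from the edgeR quasi-likelihood test). Without vehicle replicate 1 or 3, 1 of them rose and 0 fell, and Klc3 was also not called without BI 853520 replicate 4 or 7. Kifc3, a minus-end motor of cell junctions and the Golgi, rose from 31.3 ± 1.13 to 41.0 ± 4.48 CPM (SD, n = 3 and n = 6, log2 fold change 0.39, adjusted p = 0.00877).

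Of 11 cargo adaptors tested 0 fell and 1 rose (9.09%, beside 14.6% of all genes tested), Trak1, which couples kinesin to mitochondria (0.26 on the log2 scale, adjusted p = 0.0107), and the call was lost without vehicle replicate 2. The next smallest p among the adaptors belonged to Plekhm2 (0.15, 0.109) and Clstn3 (-0.43, 0.161). Of 15 subunits of cytoplasmic dynein and dynactin, the motor of the opposite direction, 0 fell and 2 rose (13.3%), Dctn5 (0.23, 0.00629) and Dctn6 (0.23, 0.0284). That number was 1 without any of the vehicle tumors or BI 853520 replicate 7 and 4 without BI 853520 replicate 5, and the third smallest p was that of Dynlt1b (0.68, 0.0591). Of 13 intraflagellar transport genes 0 fell and 1 rose (7.69%), Ift20 (0.26, 0.0207), while Ift81 (-0.20, 0.0532) and Ift22 (0.22, 0.0744) were not called. The number of intraflagellar genes that rose was 0 without vehicle replicate 1 and 2 without BI 853520 replicate 6. A fall of 1 of these genes was called by DESeq2, by limma-voom, with plain library sizes and without BI 853520 replicate 4 or 6. At an unadjusted p of at most 0.05, 5687 of all 13966 genes tested passed. In these lists, 2 of the 11 adaptors, 3 of the 15 dynein and dynactin genes and 5 of the 13 intraflagellar genes did. Their median log2 fold changes were -0.01, 0.07 and -0.00289, beside -0.40 for the mitotic kinesins.

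**Figure D5:**
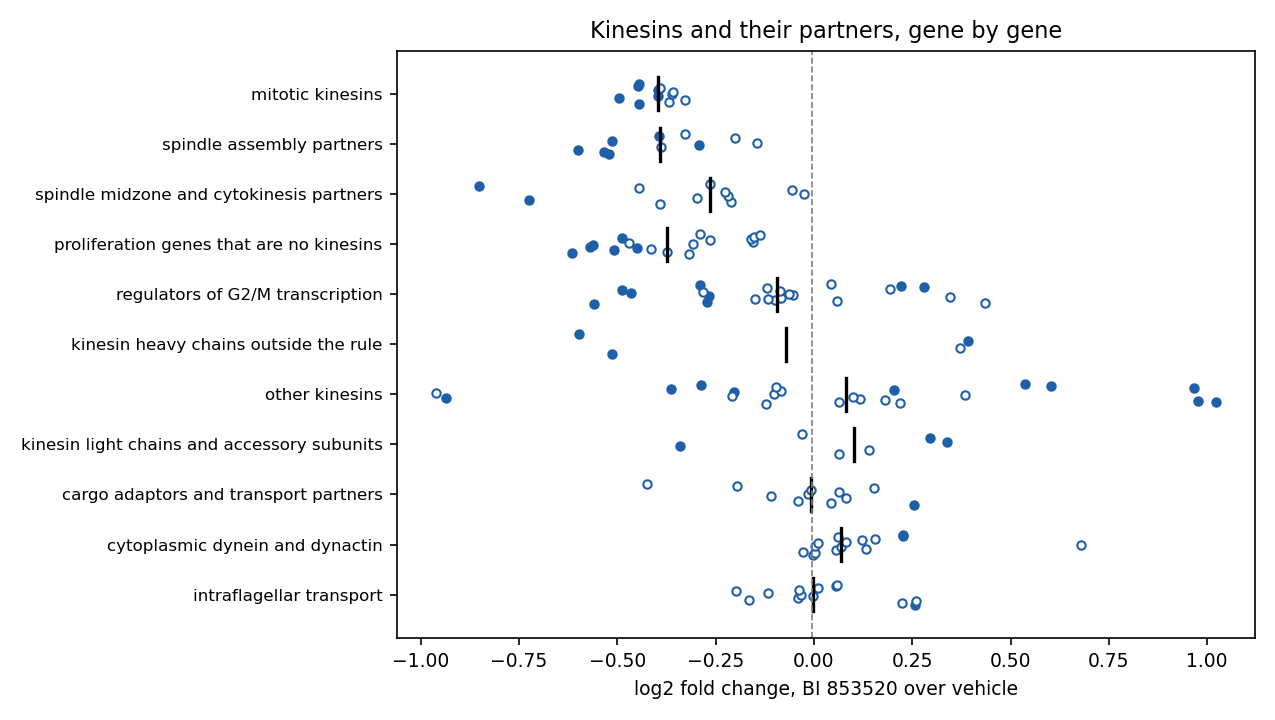
Log2 fold change of BI 853520 over vehicle for each tested gene of the kinesin and partner lists, filled where the adjusted p is at most 0.05, with a black line for the median of a list and a dashed line for the median of all genes tested. The mitotic kinesins, the spindle partners and the proliferation genes lie to the left of 0, with medians of -0.40, -0.39 and -0.37, and the transport lists are centered near 0.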

How the data were processed

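Tumor RNA was sequenced from both ends after a stranded library preparation. The authors aligned the reads to mm9 with STAR, kept unique hits, and assigned a read to a gene with QuasR where it began in a RefSeq exon. The authors deposited these raw counts, unnormalized, with a gene length in bases (18755 genes, 9 tumors). How that length was derived, and whether counting used the strand, is not given in the sources used here. Symbols came from a RefSeq table (GRCm38.p6) by Entrez identifier for 18700 genes, and mm9 positions from GENCODE vM1 by symbol. The labels put each tumor in its group.

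Counts were filtered with edgeR 4.0.16 in R 4.3.3 (filterByExpr, minimum count 10, minimum total 15), normalized by TMM and tested with the quasi-likelihood method for a difference between BI 853520 and vehicle, no covariate being used, with Benjamini-Hochberg adjustment over 13966 genes and a threshold of 0.05. The study's limits (unadjusted p up to 0.05, absolute log2 fold change 0.584 or more) were an alternative. The standard error is the log2 fold change divided by the square root of F. The mean log2 CPM used a prior count of 2. P-values come from a test of the group difference against the spread between these tumors, and counting floors cover counting error only. Libraries of a group differed by more than sampling noise, with a mean chi-square of 8.83 to 30.0 for each gene. The scripts were tested on simulated data.

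Named are the mitotic kinesins tested, the other kinesins called, and among those others the 3 with the highest level per kilobase and the 3 uncalled with the largest change, untested members, and for each partner list the 3 genes with the smallest p with Foxm1 and Mybl2. The members and lists were chosen with earlier results of these data known. The other marker lists were endothelium (3 of 5 rose), fibroblasts (1 of 6 rose), adipocytes (0 of 5 called by edgeR, 1 at an unadjusted p of at most 0.05) and skeletal muscle (0 of 4 called, 0 at that p). Trac and Ly6g were not analysed here, and a further marker list is not reported here. The alternatives were RLE factors, plain library sizes, no filter, a minimum of 1 CPM in 3 or more tumors, the likelihood ratio test, DESeq2 1.42.0, limma-voom (limma 3.58.1) and leaving out each tumor in turn.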

Additional observations from a re-analysis of the deposited data

How the results depend on the processing

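Under all 16 alternatives no kinesin changed direction. Of 528 results of single kinesins over these alternatives, 470 kept their side of the threshold, 40 lost a call and 18 gained one. At the study's limits, which ask for a 1.5-fold change, the falling genes numbered 0 among the mitotic kinesins, 2 among the other kinesins (Kif21a and Kif27), 5 among the 108 partner genes tested and 499 among all genes, and the rising genes numbered 1 among the partners and 1339 among all genes. With single tumors left out, 0 to 11 mitotic and 3 to 5 other kinesins fell, 2 to 6 other kinesins rose, 9 to 27 partner genes fell and 5 to 11 rose, and over all genes 1172 to 1980 fell and 1332 to 2026 rose. The median log2 fold change then ran from -0.51 to -0.30 for the mitotic and from 0.05 to 0.11 for the other kinesins. Each of these fits left out a single tumor, and why the counts changed was not tested. No paired analysis was made, because the labels name no pairing of tumors between the groups. Kif17, with between 2 and 6 counts per tumor, was not tested, and Kif27 had as few as 9 counts in a tumor.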
